A study of Homo sapiens with 17 samples.

Results

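The genes described here are IL8 (an older symbol of CXCL8), CXCL2, BIRC3 and TNFRSF9, which make up 4 of the 1400 genes named in 4 deposited tables of knockdown comparisons. They were picked by symbol, with earlier results from these tables known, so their log2 ratios chose them and are given as a description with no test. The cells were PC3, an established line from a human prostate cancer metastasis. All cells carried a virus for 7 days before harvest. The knockdown groups were MED25 shRNA A and MED25 shRNA B (lentivirus, 3 libraries each) and ETV4 shRNA A and ETV4 shRNA B (retrovirus, 3 libraries each), called MED25 hairpin A and so on below. Their controls were a lentiviral control with a luciferase shRNA (3 libraries) and a retroviral control shRNA (2 libraries), although the series design text speaks of an empty vector. A short hairpin RNA lowers a transcript without removing it, each hairpin can act on other transcripts as well, and every infected population came from the same cell line.

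Each table gives 1 log2 ratio and 1 adjusted-p score per gene and nothing per library, so neither depth nor spread between replicates is known, and no difference between hairpins could be tested. The ratios below are log2 of knockdown over control in the authors' deposited tables, and their direction rests on taking as control the library number that both tables of a target have in common, which the sign of the targeted genes helped to settle. Under that reading, all ratios in the authors' deposited tables are decreases, the smallest of them 1.5-fold. The tables held 786, 374, 495 and 98 genes for MED25 hairpin A, MED25 hairpin B, ETV4 hairpin A and ETV4 hairpin B, with median log2 ratios of −0.78, −0.77, −0.79 and −0.77. A gene missing from a table may have been unchanged, higher or not measured, and missing is written here as not listed. The targeted transcripts stood at 51.6% of control with MED25 hairpin A, 30.5% with MED25 hairpin B, 26.1% with ETV4 hairpin A and 15.8% with ETV4 hairpin B in the authors' deposited tables. Absolute levels, and with them the markers of PC3 cells, cannot be read from ratios.

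MED25 is a subunit of Mediator, the complex that links transcription factors to RNA polymerase II, and it is known to bind the activation domains of ETV4 and related ETS factors. NF-kB is a family of transcription factors held in the cytoplasm by inhibitor proteins until signals such as TNF or IL-1 release it, and it often acts beside AP-1 at the promoters of cytokine genes. CXCL8 and CXCL2 are secreted chemokines that draw neutrophils through the receptor CXCR2, with CXCR1 as a further receptor of CXCL8. PC3 cells are known for secreting CXCL8. TNFRSF9 is a TNF receptor family member, best known as a costimulatory receptor of T cells, that signals through TRAF adaptors to NF-kB. BIRC3, also called cIAP2, is a ubiquitin ligase of the inhibitor of apoptosis family that is recruited by TRAF proteins to TNF receptors and favours survival.

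All 4 genes had an NF-kB-type sequence in the 250 bases before their annotated start. The stretches are shown because the genes carry different combinations of matches to the letters searched. Capitals mark the matches to NF-kB (GGNNTTNCC), AP-1 (TGANTCA) and ETS (GGAAGT) motifs, searched on both strands. The sequences are from RefSeq on GRCh38.p14, run 5′ to 3′ on the gene's strand and end at the base before the start, at chr4:73740319-73740568 (+ strand) for CXCL8, chr4:74099196-74099445 (− strand) for CXCL2, chr11:102317234-102317483 (+ strand) for BIRC3 and chr1:7940840-7941089 (− strand) for TNFRSF9.
CXCL8: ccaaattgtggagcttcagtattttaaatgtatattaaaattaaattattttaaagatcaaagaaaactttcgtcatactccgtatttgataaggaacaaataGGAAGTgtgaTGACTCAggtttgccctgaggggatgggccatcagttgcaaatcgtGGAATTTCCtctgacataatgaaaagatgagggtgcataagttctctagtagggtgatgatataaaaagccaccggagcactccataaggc
CXCL2: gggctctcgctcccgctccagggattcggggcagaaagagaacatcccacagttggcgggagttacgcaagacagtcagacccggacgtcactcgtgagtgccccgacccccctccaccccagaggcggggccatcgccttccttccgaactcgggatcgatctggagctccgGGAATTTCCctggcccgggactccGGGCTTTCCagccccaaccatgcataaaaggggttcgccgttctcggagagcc
BIRC3: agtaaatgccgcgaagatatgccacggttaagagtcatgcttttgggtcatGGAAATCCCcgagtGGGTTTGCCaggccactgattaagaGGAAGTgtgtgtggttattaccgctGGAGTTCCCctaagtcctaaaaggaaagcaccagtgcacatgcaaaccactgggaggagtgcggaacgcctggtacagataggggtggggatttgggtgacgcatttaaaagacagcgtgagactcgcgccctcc
TNFRSF9: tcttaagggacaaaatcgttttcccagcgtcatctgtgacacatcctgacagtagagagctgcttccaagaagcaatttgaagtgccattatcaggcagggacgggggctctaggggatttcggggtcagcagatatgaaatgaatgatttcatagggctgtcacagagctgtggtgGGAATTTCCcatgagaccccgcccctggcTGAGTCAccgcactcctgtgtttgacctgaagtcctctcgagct

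The NF-kB motif had 1 match in CXCL8, 91 to 83 bases before the start, and 1 in TNFRSF9, 73 to 65 bases before it. CXCL2 had 2 matches, at 77 to 69 and 53 to 45 bases, and BIRC3 had 3, at 199 to 191, 185 to 177 and 135 to 127 bases. Of 27305 RefSeq promoters searched over the same 250 bases, 14.8% held at least 1 NF-kB match and 1.81% held at least 2. The 4 genes were grouped as chemokines and NF-kB survival genes, so nothing is read from the difference. AP-1 matches were present in CXCL8 (137 to 131 bases) and TNFRSF9 (44 to 38 bases), against 6.60% of all promoters. The ETS motif was matched in CXCL8 (147 to 142 bases) and BIRC3 (160 to 155 bases), against 19.9% of all promoters. In CXCL8 the ETS and AP-1 matches were separated by 4 bases. The TATA box letters TATAAA, present somewhere in the 250 bases on either strand in 11.1% of all promoters, were also searched for. They were matched in CXCL8 alone of the 4 genes, 31 to 26 bases before the start. For every motif only the stated letters were counted, so an ETS, AP-1 or NF-kB site or a TATA-like element of other letters would be missed. A gene without a match may therefore still hold such a site. No match overlapped another. Such matches describe letters in a window and say nothing of binding. Among promoters of listed genes the NF-kB motif was held by 16.8% (90 of 535) with MED25 hairpin A, 15.3% (37 of 242) with MED25 hairpin B, 18.7% (65 of 347) with ETV4 hairpin A and 16.9% (12 of 71) with ETV4 hairpin B.

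**Figure D1:**
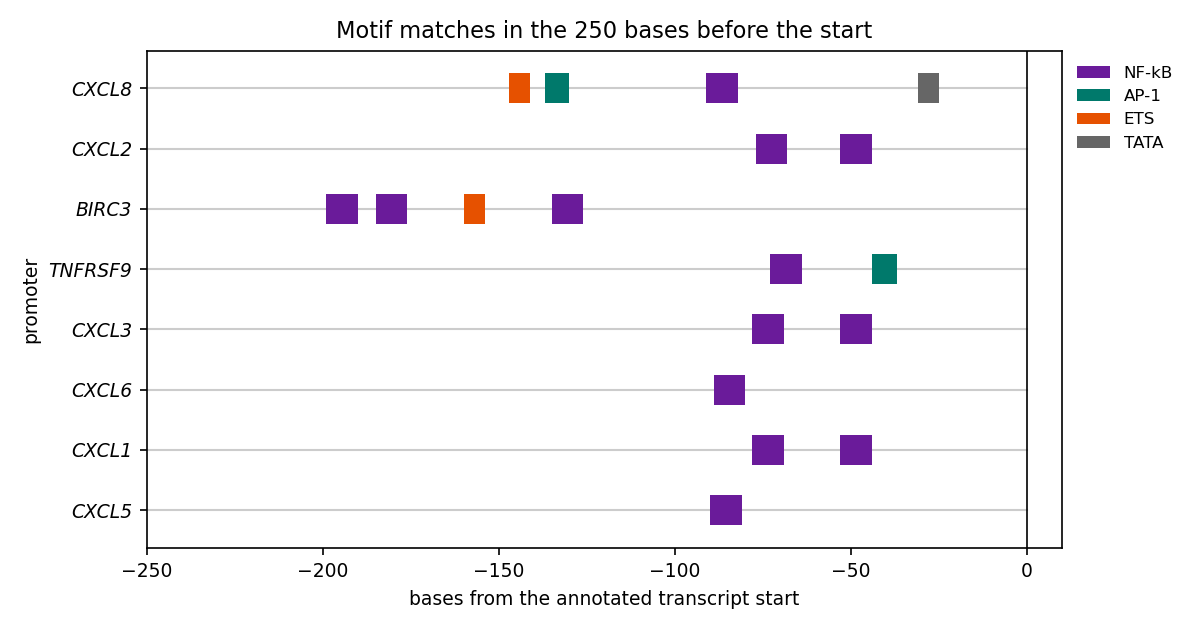
Motif matches in the 250 bases before the annotated start of CXCL8, CXCL2, BIRC3, TNFRSF9 and the 4 further chemokine genes of the CXCL8 cluster that hold an NF-kB match, with the horizontal axis in bases from the start and colours for the motif. PPBP and PF4V1 of the cluster were searched, had no NF-kB match and are not drawn. AP-1 matches are seen in CXCL8 and TNFRSF9, and ETS matches in CXCL8 and BIRC3.

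The 4 genes were listed in different combinations of tables. Of 16 pairs of a gene and a table, 9 were listed. Counts were 2 of 4 genes with MED25 hairpin A, 3 of 4 with MED25 hairpin B, 3 of 4 with ETV4 hairpin A and 1 of 4 with ETV4 hairpin B. The share of 19951 annotated protein-coding genes listed was 3.44%, 1.61%, 2.17% and 0.456% in the same order, but as the tables chose the 4 genes, nothing is read from the difference. CXCL2 and TNFRSF9 were listed for both targets, IL8 for MED25 alone and BIRC3 for ETV4 alone. Whether IL8 and BIRC3 differ between the targets cannot be tested with these tables.

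IL8 was at −0.83 with MED25 hairpin A, or 56.2% of control, in the authors' deposited table. In the authors' deposited table for MED25 hairpin B it was at −1.17, or 44.3% of control, and it was listed with neither ETV4 hairpin. By size of decrease IL8 ranked 322 of 786 genes with MED25 hairpin A and 42 of 374 with MED25 hairpin B. Its adjusted-p scores were 60.2 and 123 in the authors' deposited tables, against table medians of 67.6 and 63.4. Both MED25 tables share their lentiviral control libraries, so the 2 IL8 ratios are not independent of each other.

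CXCL2 was listed in 3 of the 4 tables, more than any other of the 4 genes. It was at −1.22 (43.0% of control) with MED25 hairpin A, −0.74 (60.0%) with MED25 hairpin B and −0.66 (63.3%) with ETV4 hairpin A in the authors' deposited tables. Its ranks by decrease were 90 of 786, 215 of 374 and 384 of 495. Scores were 58.0, 27.1 and 26.4 in the authors' deposited tables, so that the last 2 lay close to the lowest scores listed, 20.3 with MED25 hairpin B and 20.1 with ETV4 hairpin A. CXCL2 is closely similar in sequence to CXCL1 and CXCL3, and the sources used here do not say how reads shared between them were counted.

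TNFRSF9 was at −0.78 (58.1% of control) with MED25 hairpin B and at −1.22 (43.0%) with ETV4 hairpin A in the authors' deposited tables. It was thus listed with 1 hairpin of each target and missing with the other. It ranked 176 of 374 genes by decrease with MED25 hairpin B and 63 of 495 with ETV4 hairpin A. The score with MED25 hairpin B, 23.7 in the authors' deposited table, ranked 355 of 374, while that with ETV4 hairpin A, 58.5, ranked 262 of 495. The annotation has a processed pseudogene on the opposite strand within TNFRSF9, which was not listed.

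BIRC3 was at −0.71 (61.3% of control) with ETV4 hairpin A and at −0.98 (50.7%) with ETV4 hairpin B in the authors' deposited tables. It was the single gene of the 4 in the table of ETV4 hairpin B, where it ranked 23 of 98 by decrease and 19 by score. Its scores, 95.3 and 161 in the authors' deposited tables, were above the table medians of 63.6 and 66.7. These 2 ratios share the 2 retroviral control libraries.

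The 4 genes had no common order by loss of the targeted transcript, of which hairpin B of either target left less. IL8 with MED25 and BIRC3 with ETV4 had the lower ratio with hairpin B, whereas CXCL2 with MED25 had it with hairpin A. For ETV4, CXCL2 and TNFRSF9 were listed with hairpin A and not with hairpin B. For MED25, TNFRSF9 was listed with hairpin B and not with hairpin A.

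**Figure D2:**
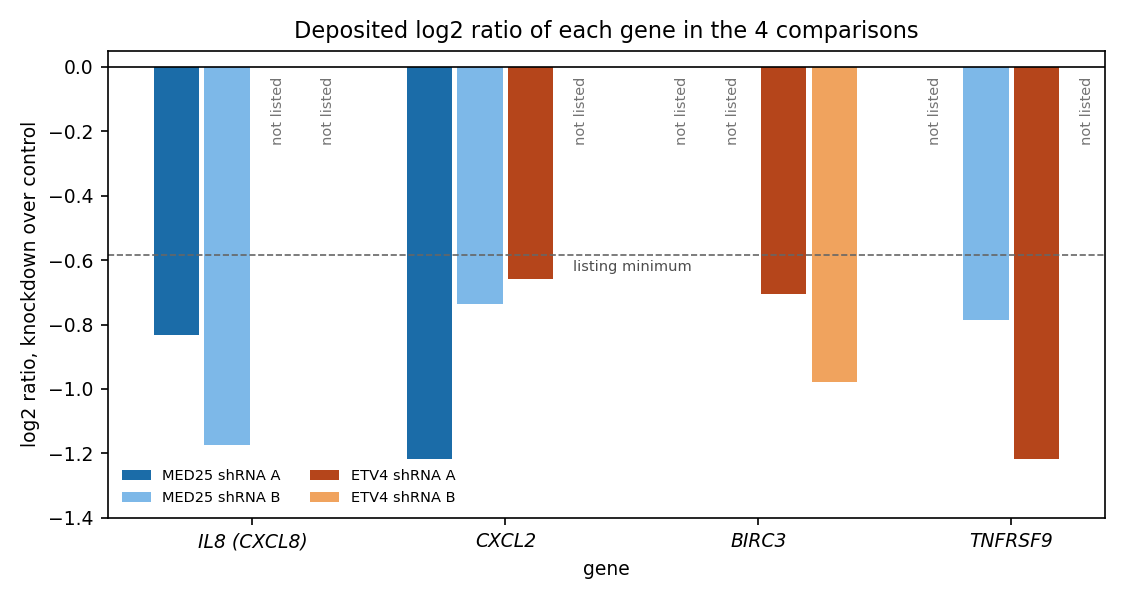
Vertical axis, log2 ratio of knockdown over control in the deposited tables, for IL8, CXCL2, BIRC3 and TNFRSF9, with 1 bar per comparison and no error, as the tables carry none; the dashed line marks the smallest decrease listed. IL8 bars stand with the MED25 hairpins, BIRC3 bars with the ETV4 hairpins, and CXCL2 and TNFRSF9 bars with both targets.

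Decreases of at least 2-fold were found in 3 of the 9 listed pairs, namely IL8 with MED25 hairpin B, CXCL2 with MED25 hairpin A and TNFRSF9 with ETV4 hairpin A. Shares of annotated coding genes lowered that far were 0.802% with MED25 hairpin A, 0.336% with MED25 hairpin B, 0.491% with ETV4 hairpin A and 0.0802% with ETV4 hairpin B. Among listed genes, 24.0%, 20.1%, 23.2% and 20.4% were lowered at least 2-fold in the same order. The 9 pairs ranged from 43.0% to 63.3% of control, and none was among the 10 lowest ratios of its table.

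**Figure D3:**
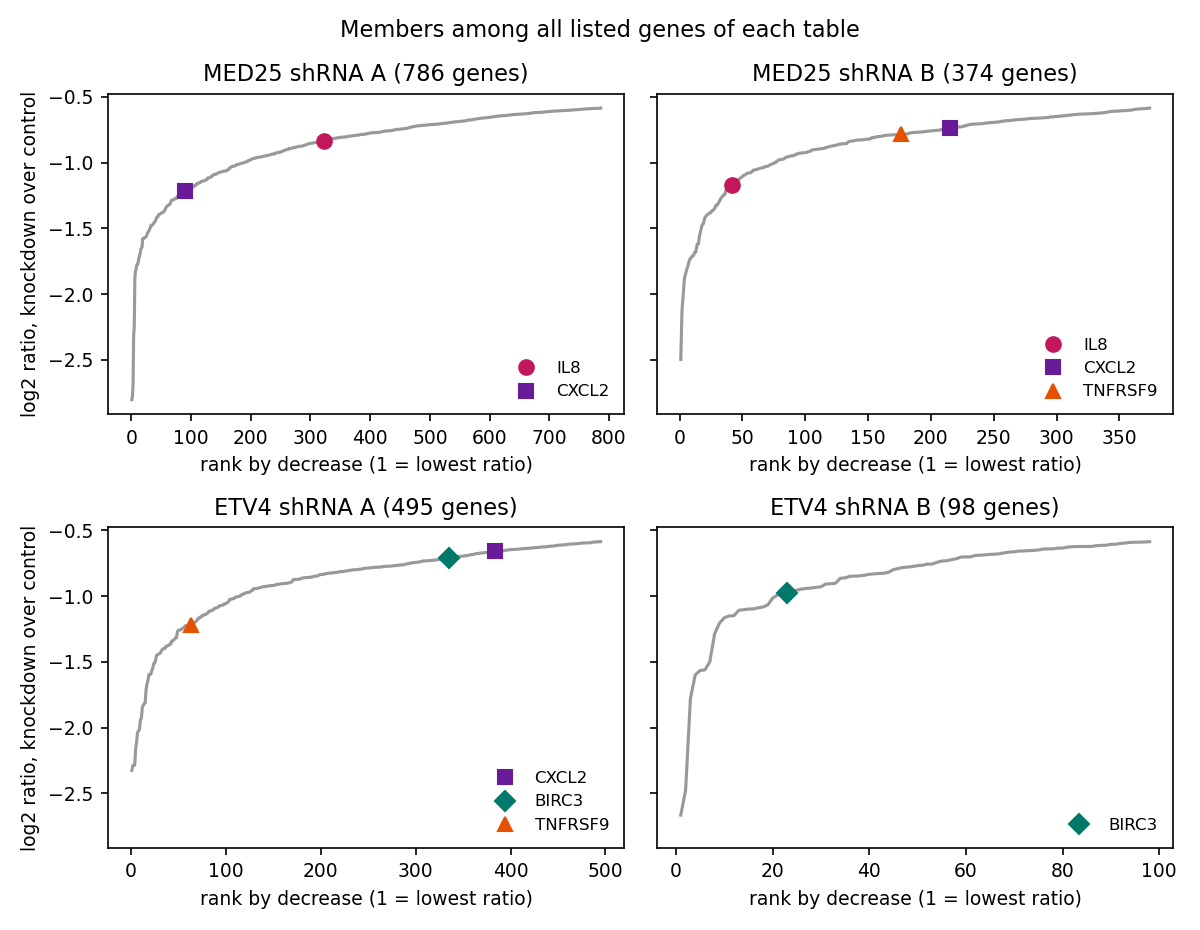
All genes of each of the 4 tables sorted by log2 ratio (grey line; horizontal axis, rank by decrease; vertical axis, log2 ratio of knockdown over control), with IL8, CXCL2, BIRC3 and TNFRSF9 marked where listed. The marked genes lie between rank 23 in the table of ETV4 hairpin B and rank 384 in that of ETV4 hairpin A, off the steep left end of each curve.

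Every listed gene of the chemokine lists searched, which did not hold all chemokines, belonged to the CXC chemokine cluster around CXCL8 on chromosome 4. In that cluster most genes encode neutrophil attractants like CXCL8, while PF4 and PF4V1 do not. Of its 9 genes, 3 were listed with MED25 hairpin A, 2 with MED25 hairpin B, 2 with ETV4 hairpin A and 0 with ETV4 hairpin B. Besides IL8 and CXCL2, these were CXCL3, at −0.78 with MED25 hairpin A, and CXCL6, at −0.61 with ETV4 hairpin A, in the authors' deposited tables. CXCL3 and CXCL6 each appeared in 1 table. Their scores were 26.3 and 66.0 in the authors' deposited tables, against table medians of 67.6 and 63.6. Without IL8 and CXCL2, which were chosen from these values, the counts were 1, 0, 1 and 0 of 7, and the shares over all annotated coding genes were 3.44%, 1.61%, 2.17% and 0.456%. No difference from other genes was tested. Among 29 other chemokines and 19 chemokine receptors, among them CXCR1 and CXCR2, 0 were listed in any table. The shares over all annotated coding genes given above are low for lists of this length. Nothing is therefore read from these counts, nor from the place of all listed chemokines in the cluster.

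In the cluster CXCL8 and CXCL2 have 7 coding genes between them, and 6 of the 8 cluster genes with a RefSeq promoter held the same NF-kB site, with no NF-kB match in PPBP and PF4V1. The sites are shown because listed and unlisted genes carry identical letters there, marked by capitals, with 8 bases on each side. Where a promoter had 2 matches the one farther from the start is given. Positions on GRCh38.p14 are chr4:73740470-73740494 (+) for CXCL8, chr4:74099256-74099280 (−) for CXCL2, chr4:74038751-74038775 (−) for CXCL3, chr4:73836581-73836605 (+) for CXCL6, chr4:73869307-73869331 (+) for CXCL1 and chr4:73998751-73998775 (−) for CXCL5.
CXCL8: caaatcgtGGAATTTCCtctgacat
CXCL2: gagctccgGGAATTTCCctggcccg
CXCL3: gagctccgGGAATTTCCctggcccg
CXCL6: gagttcagGGAATTTCCccagcatc
CXCL1: gaactccgGGAATTTCCctggcccg
CXCL5: gagttcagGGAATTTCCccagcatc

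The 9 letters GGAATTTCC, searched for after these sequences were seen, were present in 0.428% of all promoters (117 of 27305), in 6 of the 8 cluster promoters and in TNFRSF9, but not in BIRC3. CXCL8, CXCL2, CXCL3 and CXCL6 were listed in at least 1 table, whereas CXCL1 and CXCL5 were listed in none. The printed stretches of CXCL6 and CXCL5 were the same in all 25 bases, as were those of CXCL2 and CXCL3. Listed and unlisted chemokine genes shared the site, but a gene not listed may have been unchanged, higher or not measured. Whether the site bears on listing was not tested.

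The inhibitor of apoptosis family had BIRC3 alone listed of its 8 genes, with BIRC2, XIAP and survivin (BIRC5) in none of the tables. Of 10 other survival genes of NF-kB, such as BCL2A1, CFLAR and SOD2, 1 was listed. This was GADD45B, a stress-induced signalling protein, at −0.71 with MED25 hairpin A and −0.82 with MED25 hairpin B in the authors' deposited tables. GADD45B thus had the same 2 tables as IL8.

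Of the 29 TNF receptors, NGFR was listed besides TNFRSF9, at −1.64 with MED25 hairpin A and −1.62 with MED25 hairpin B in the authors' deposited tables. In the table of MED25 hairpin B, which held both receptors, the ratio of NGFR was the lower. Of 18 TNF family ligands 2 were listed, TNFSF15 at −0.85 with MED25 hairpin A and CD70 at −0.81 with ETV4 hairpin A in the authors' deposited tables. Scores of TNFSF15 (23.4) and CD70 (25.9) in the authors' deposited tables lay near the lowest listed there, 20.3 and 20.1. TNFSF9, the ligand of TNFRSF9, was listed in no table.

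NF-kB subunits were not among the listed genes. Of 35 genes for subunits, inhibitors and upstream adaptors 3 were listed. These were the kinase IRAK1 at −0.61 and the ubiquitin ligase TRAF6 at −0.69, both of which act below IL-1 receptors, under MED25 hairpin B in the authors' deposited table. With ETV4 hairpin A, NFKBIZ, a nuclear IkB protein that helps induce secondary cytokine genes, was at −1.04 in the authors' deposited table.

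Among 33 inflammatory target genes 4 were listed, each in a single table. The soluble pattern receptor PTX3 was at −1.23 and the cytokine IL15 at −0.73 with ETV4 hairpin A in the authors' deposited table. Under MED25 hairpin B, the IL-33 receptor IL1RL1 was at −0.80 in the authors' deposited table. IL18 was at −0.59 with MED25 hairpin A in the authors' deposited table, close to the listing minimum. IL6, IL1A, IL1B, ICAM1 and PTGS2 were not listed in any table.

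Taking the 6 NF-kB lists as 1 set of 133 genes, with BIRC3 and TNFRSF9 included, 4 were listed with MED25 hairpin A (3.01%), 6 with MED25 hairpin B (4.51%), 6 with ETV4 hairpin A (4.51%) and 1 with ETV4 hairpin B (0.752%). All annotated coding genes gave 3.44%, 1.61%, 2.17% and 0.456% in the same order. Without BIRC3 and TNFRSF9 the counts were 4, 5, 4 and 0 of 131. Median log2 ratios of the listed NF-kB genes were −0.78, −0.79, −0.93 and −0.98 (the last being BIRC3 alone), against −0.78, −0.77, −0.79 and −0.77 over all listed genes. Except with MED25 hairpin A, these medians include BIRC3 or TNFRSF9, whose own ratios chose them, so nothing is read from the difference. These lists were drawn up with results of the same tables known and no test was made of them. Counts given above for the single NF-kB lists are over any of the 4 tables. No share of all coding genes was computed for that, and nothing is read from them.

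The list of 17 AP-1 and C/EBP factors, some of which act with NF-kB at the CXCL8 promoter, was also drawn up with results known. Listed were 6 with MED25 hairpin A, 3 with MED25 hairpin B, 3 with ETV4 hairpin A and 0 with ETV4 hairpin B. These are 35.3%, 17.6%, 17.6% and 0%, against 3.44%, 1.61%, 2.17% and 0.456% of all annotated coding genes, and the difference was not tested. JUN, an AP-1 subunit, was at −0.60 with MED25 hairpin A and −1.41 with MED25 hairpin B in the authors' deposited tables. FOSL1 at −0.82 and JUNB at −0.67, also AP-1 subunits, appeared in the authors' deposited table of MED25 hairpin B alone. For 5 other factors the only MED25 listing was that of hairpin A. In the authors' deposited table of that hairpin, JDP2 stood at −1.45, ATF3 at −1.20, CEBPG at −1.15, CEBPB at −1.06 and DDIT3 at −1.05. Scores of these 5 there ran from 27.5 (DDIT3) to 51.3 (CEBPG), below the table median of 67.6. ETV4 hairpin A had JDP2 at −1.07, CEBPB at −0.98 and CEBPG at −0.75 in the authors' deposited table.

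**Figure D4:**
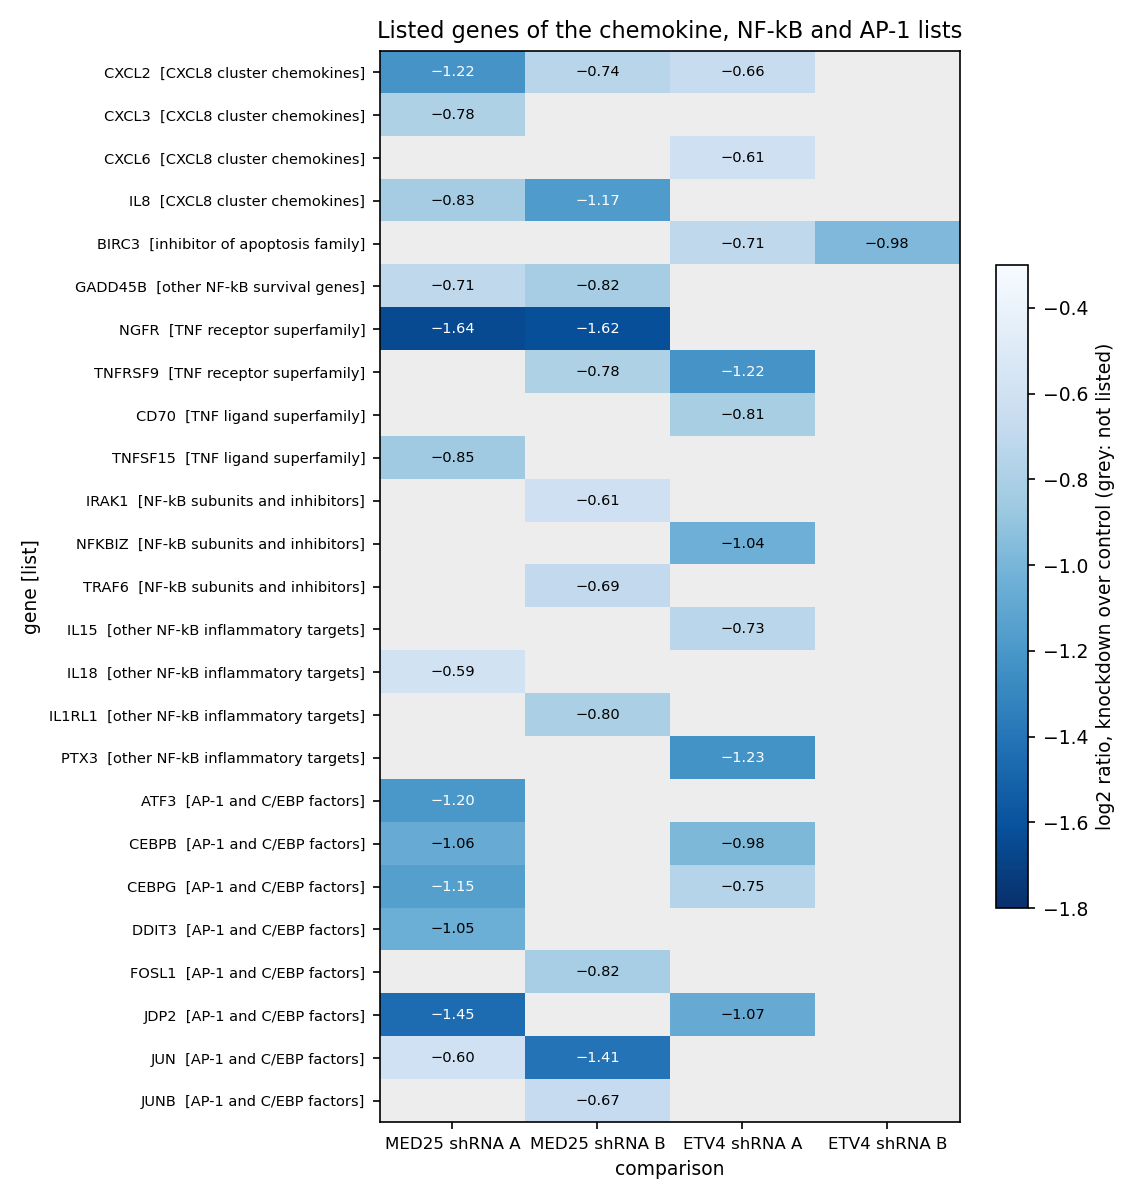
Log2 ratio of knockdown over control (colour and printed value) in the 4 comparisons (columns) for every listed gene of the chemokine, NF-kB and AP-1 lists (rows, list in brackets), with grey for genes not listed. BIRC3 is the single row with a value in the column of ETV4 hairpin B, and most other rows have a value in 1 or 2 columns.

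Chromosomal neighbours were read from the order of coding genes in GENCODE release 29, taking 10 on each side of each gene. Counting each neighbour once and leaving out the 4 genes themselves gave 67 neighbours, of which 5 were listed with MED25 hairpin A (7.46%), 1 with MED25 hairpin B (1.49%), 5 with ETV4 hairpin A (7.46%) and 1 with ETV4 hairpin B (1.49%). Over all annotated coding genes the shares were 3.44%, 1.61%, 2.17% and 0.456% in the same order, and no difference was tested. In all, 10 of the 67, CXCL3 and CXCL6 among them, were in at least 1 table. No share of all coding genes was computed for listing in any table, so nothing is read from that count.

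Beyond CXCL2 and past the unlisted MTHFD2L, 4 genes for EGF receptor ligands follow one another on chromosome 4, and each was listed in 1 table. Epigen (EPGN) was at −0.64 with ETV4 hairpin B and epiregulin (EREG) at −0.70 with ETV4 hairpin A in the authors' deposited tables. Amphiregulin (AREG), at −1.32, and betacellulin (BTC), at −0.63, were both in the authors' deposited table for MED25 hairpin A. AREG has a near-identical copy in hg19, so its value is uncertain. Scores of EPGN (37.9), EREG (27.6), AREG (43.1) and BTC (30.3) in the authors' deposited tables were all below the medians of their tables. No one table held more than 2 of these 4 ligand genes.

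UTS2, which encodes the peptide urotensin II, lies next to TNFRSF9 on chromosome 1. It was at −1.19 with MED25 hairpin A and −1.64 with ETV4 hairpin A in the authors' deposited tables. The 2 neighbours thus shared the table of ETV4 hairpin A and differed in their MED25 hairpin. KLHL21, 8 coding genes from TNFRSF9, was at −0.68 with MED25 hairpin B in the authors' deposited table.

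BIRC3 lies beside BIRC2 and near the matrix metalloproteinase genes of chromosome 11. The collagenase MMP1 was at −1.18 with ETV4 hairpin A in the authors' deposited table. The stromelysin MMP3 was at −0.73 with ETV4 hairpin A and −1.50 with MED25 hairpin A in the authors' deposited tables. Its score with ETV4 hairpin A, 20.2 in the authors' deposited table, lay next to the lowest listed there, 20.1. MMP1 and MMP3 are 8 and 9 coding genes from BIRC3, and the 7 genes between BIRC3 and MMP1 were not listed.

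**Figure D5:**
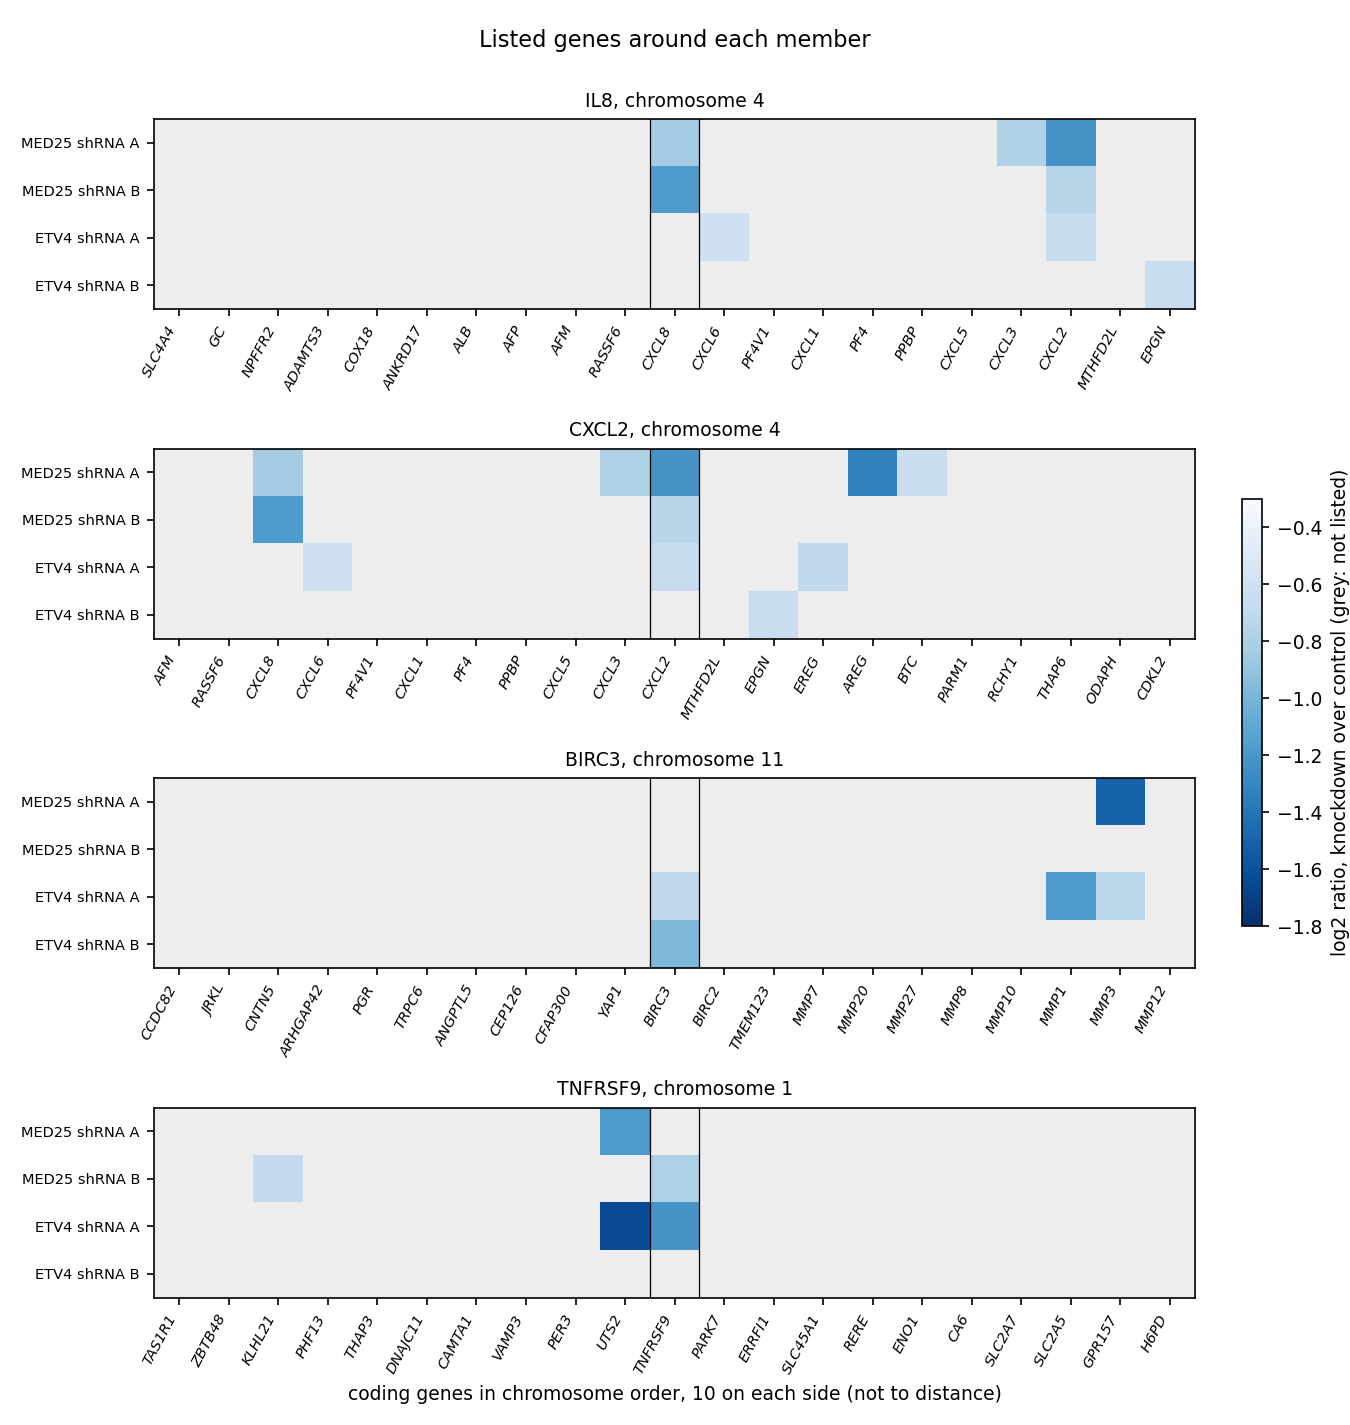
Log2 ratio of knockdown over control (colour, grey where not listed) for the 10 coding genes on each side of IL8 (CXCL8), CXCL2, BIRC3 and TNFRSF9 (between the black lines), in chromosome order along the horizontal axis and with 1 row per comparison. The ligand genes EPGN, EREG, AREG and BTC are seen to the right of CXCL2, MMP1 and MMP3 to the right of BIRC3, and UTS2 directly left of TNFRSF9.

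For each of the 4 genes, the closest log2 ratios over its own tables were sought among all genes listed in at least those tables, by Euclidean distance. For CXCL2 (24 candidates, 3 tables) the nearest was the transcription factor KLF4, at −1.11 with MED25 hairpin A, −0.78 with MED25 hairpin B and −0.66 with ETV4 hairpin A in the authors' deposited tables (distance 0.11). The tyrosine kinase FRK (0.17) and the histone gene HIST1H4K (0.30) followed, the last of which has near-identical copies. For IL8 (152 candidates, 2 tables) the nearest were AC073995.2 (0.13), the phosphoinositide kinase subunit PIK3R2 (0.13) and IER5L (0.14). For BIRC3 (56 candidates, 2 tables) they were the sulfotransferase CHST2 (0.083), the Notch effector HEY1 (0.092) and dysferlin (DYSF, 0.16). For TNFRSF9 (46 candidates, 2 tables) they were RP11-887P2.1 (0.018), the netrin family gene NTNG1 (0.069) and CITED4 (0.11). Candidates could be listed in further tables. Those with exactly the tables of the gene in question numbered 14 for CXCL2, 124 for IL8, 26 for BIRC3 and 11 for TNFRSF9. All 3 genes nearest to TNFRSF9 were also in a table that lacked it, RP11-887P2.1 in that of ETV4 hairpin B, and NTNG1 and CITED4 in that of MED25 hairpin A. The same holds for CHST2 and HEY1 beside BIRC3, which were in at least 1 MED25 table. Of the 4 genes only CXCL2 was a candidate for another, namely for IL8 and TNFRSF9, and it was among the nearest of neither. For the other pairs the rule on tables excluded a match, so nothing is read from this. With 2 or 3 ratios per gene, and control libraries shared within a target, likeness of this kind is a description.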

How the data were processed

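RNA-seq of PC3 cells was used as 4 tables of the authors' own comparisons, 1 per hairpin. The submitters' processing notes name Novoalign 3.08.02 and the hg19 build. The sources used here do not give the counting method, its use of strand, the annotation, the scaling or the authors' test. Deposited values are a log2 ratio per gene and an adjusted p, per the file headers. As it exceeds 1, the deposited adjusted p was treated as a score of unstated scale.

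MED25 ratios were turned round to give knockdown over control. The 4 genes, the gene lists, motifs and the rule for named genes (the 4 genes, both targets, all listed members of the lists, 3 genes of like pattern and listed neighbours) were chosen with earlier results of these data known. Identifiers were matched to GENCODE release 29 on a later build (1350 of 1400), used for names, gene types and order. Promoter sequences came from RefSeq (GRCh38.p14) and matched all 4 genes by symbol. A gene of the lists is not reported here and is left out of their counts. The motif search was checked by placing exact copies of the motifs in simulated sequences. That shows only that the letters are found where present and says nothing of real sites. Whether replicates came from separate cultures is not stated. Work used Python 3.11.15 with scipy 1.17.1, numpy 2.4.6, matplotlib 3.10.9 and pandas 2.3.3.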

Additional observations from a re-analysis of the deposited data

How the results depend on the processing

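No paired analysis was possible because the tables hold comparisons and no values per library, and for the same reason no replicate could be left out. With a minimum 2-fold decrease, 1 of the 4 genes was listed with each of MED25 hairpin A, MED25 hairpin B and ETV4 hairpin A, and 0 with ETV4 hairpin B. Under it the NF-kB lists had 1, 1, 3 and 0 listed genes in that order, and the chemokine lists 1 with MED25 hairpin A, 1 with MED25 hairpin B and 0 with ETV4 hairpin A. With a score of at least 50, 2 of the 4 genes were listed with MED25 hairpin A and 1 with MED25 hairpin B. With ETV4 hairpin A 2 were listed, and 1 with ETV4 hairpin B. In that order of hairpins the NF-kB lists then had 3, 4, 4 and 1 listed genes, and the chemokine lists 2, 1, 1 and 0. Ranked among genes of that score, IL8 with MED25 hairpin B moved to the lowest 18.3% from 11.2%. TNFRSF9 with ETV4 hairpin A moved to 21.0% from 12.7%. The rank numbers of IL8 and TNFRSF9 stayed the same there, and only the number of genes ranked fell. BIRC3 with ETV4 hairpin A moved to 74.3% from 67.7%, also with fewer genes ranked. CXCL2 with MED25 hairpin B and ETV4 hairpin A, and TNFRSF9 with MED25 hairpin B, had scores under 50 and no rank there. Ranks among protein-coding genes alone stayed within the 95% Wilson interval of the rank share for all 9 pairs. That interval measures no spread between replicates, and coding genes make up most of each table, so little change was possible. Matching by identifier or other symbols left the 4 counts as they were. The depth of the libraries is unknown.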
